A study of Homo sapiens with 4 samples.

Results

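The genes described here build, bundle, move and anchor actin filaments. They are 39 genes chosen by name from the 58233 gene identifiers in the count table: cytoplasmic actins, tropomyosins, non-muscle myosin chains, calponin family proteins and caldesmon, filament crosslinkers, monomer-binding and capping proteins, filament nucleators, focal adhesion proteins, small GTPases, the transcription factor SRF and the cytokinesis scaffold anillin. The rule that chose them used gene names and no measured value, although the set was put together with earlier results of these data known. The study sequenced polyadenylated RNA of 2 human pancreatic cancer cell lines, MIA PaCa-2 and PANC-1, both labelled WT, treated for 24 h with cannabichromene (CBC), a non-psychoactive phytocannabinoid, or left as the control that the labels call PBS. The methods give the doses as 35 µM for MIA PaCa-2 and 30 µM for PANC-1. They also describe CBC dissolved in acetonitrile and a vehicle control, so which control these libraries received is not settled. Each condition was 1 library, 4 libraries in all, so a change within a line has no replicate check, and the 2 established lines are the only replication of CBC against PBS.

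Inside a cell, actin monomers assemble into filaments that are nucleated by formins and the Arp2/3 complex, wrapped by tropomyosins, crosslinked by alpha-actinins and filamins and pulled by non-muscle myosin II. Filament bundles end at focal adhesions, where talin and vinculin couple them to integrins, and small GTPases such as RHOA set how much filament and tension is made. Many genes of this machinery are known targets of SRF, whose coactivators of the MRTF family are held in the cytoplasm by actin monomers. ACTB, which encodes beta-actin, was also the gene against which the study normalised its qRT-PCR, so its own level under CBC bears on how those measurements are scaled.

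Across the set, most genes were lower in the CBC library than in the PBS library of the same line, by small amounts. The median log2 fold change of the members was -0.22 in MIA PaCa-2, where 27 of 36 tested members were below 0 and 9 above, and -0.28 in PANC-1, where 27 of 39 were below 0 and 12 above. Over all genes tested the medians were -0.01 and 0.02. In MIA PaCa-2 50.9% of genes were below 0 and 49.1% above, and in PANC-1 48.6% and 51.4%. Of the 36 members tested in both lines, 21 were below 0 in each and 5 above 0 in each, against 35.1% of 12502 genes below 0 in each and 34.8% above. The directions depended on the scale, since ACTB was among the genes that were lower. With ACTB itself as the reference, the members' medians became 0.45 and 0.47. Those of all tested genes became 0.65 and 0.76, so the members' medians lay below them on either scale. The typical size of a change was not larger than that of other genes, with a median absolute log2 fold change of 0.392 and 0.344 for the members and 0.476 and 0.378 for all genes tested.

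Large changes were few. Past 2-fold, ZYX and RHOB were higher in MIA PaCa-2, 2 of 36 members where 11.5% of all tested genes passed that limit, and LIMA1, VCL and ANLN were lower, 3 of 36 where 8.97% passed. In PANC-1 RHOB was higher, 1 of 39 members beside 7.71% of genes, and TAGLN2, DIAPH3 and ANLN were lower, 3 of 39 beside 7.03%. Past 1.5-fold, 10 of 36 members were lower in MIA PaCa-2, beside 20.1% of genes, and 13 of 39 in PANC-1, beside 15.3%. Across both lines, with the line as a block in edgeR's quasi-likelihood test and Benjamini-Hochberg adjustment over 16381 genes, 1 member rose, RHOB, where 2.26% of genes rose, and 4 members fell, ACTB, MYH10, TAGLN2 and ANLN, where 2.45% fell. At an unadjusted p under 0.05 there were 2 members higher and 12 lower of 39, where 10.6% of genes were higher and 10.4% lower. That test has 1 residual degree of freedom, and edgeR drew the error of each gene in part from a trend over all tested genes. An SE is therefore not the spread of that gene alone. The spread behind it is that between the 2 lines, which is biological but not that of repeated cultures. In bulk RNA, a lower value from fewer cells of a kind and one from less RNA per cell cannot be told apart.

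**Figure D1:**
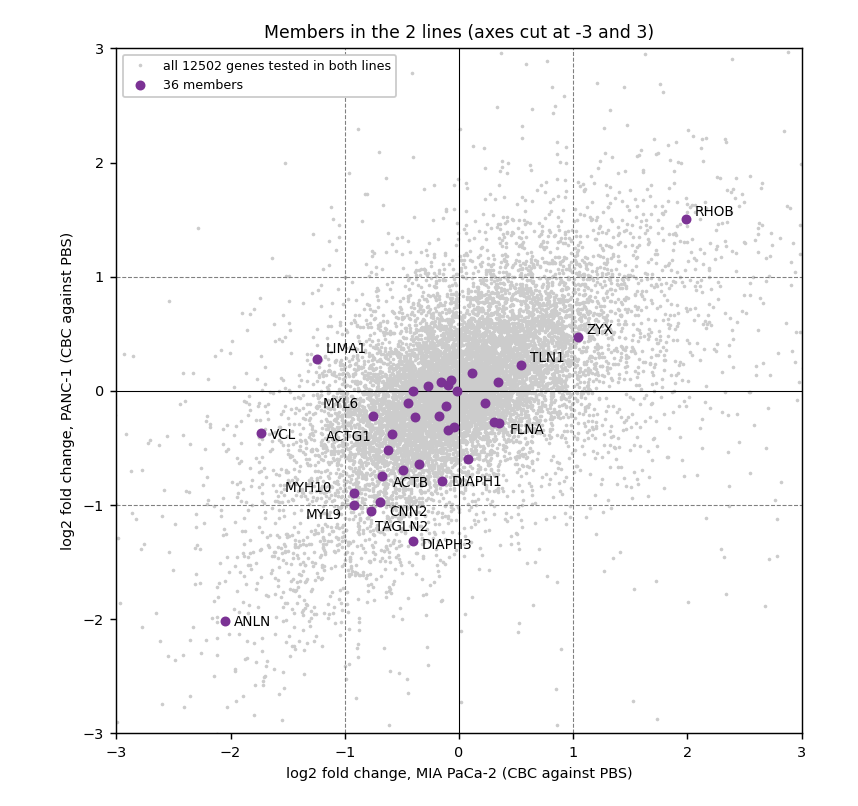
Log2 fold change of CBC against PBS in MIA PaCa-2 (x axis) and PANC-1 (y axis), with the 36 members tested in both lines in purple and all 12502 such genes in grey; dashed lines mark 2-fold. 21 members sit in the lower left quadrant, and ANLN and RHOB are the 2 that lie past 2-fold in both lines.

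The libraries held 21742775 to 27903667 counts each. The 39 members took 1.84% of the counts of the MIA PaCa-2 PBS library and 1.48% of the CBC library, and 2.22% and 1.74% in PANC-1. The keratins KRT8, KRT18 and KRT19 were abundant in all 4 libraries, while EPCAM and CDH1 had 0 to 1 counts in MIA PaCa-2 and 32 to 264 in PANC-1. Of markers of other cell types, DCN, LUM, FAP and DES were at 0 in all 4 libraries, as were PTPRC, CD3E and PECAM1. The 5 immune markers summed to 0.889 to 1.43 CPM and the 4 endothelial markers to 0.088 to 2.20 CPM. The 12 fibroblast and smooth muscle markers, of which 5 to 7 were at 0, summed to 379 and 104 CPM in MIA PaCa-2 and 159 and 53.5 CPM in PANC-1, mainly through collagen type I genes. The share of mitochondrial counts was lower with CBC, 5.81% against 3.86% in MIA PaCa-2 and 4.63% against 2.42% in PANC-1; its part in the results below was not tested.

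Levels below are CPM, counts scaled to the size of the library after TMM, and the 4 values of a gene are given in the order MIA PaCa-2 PBS, MIA PaCa-2 CBC, PANC-1 PBS, PANC-1 CBC. An interval of a ratio is an exact 95% interval of the 2 counts and covers counting error only.

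The actins are taken first. ACTB (chr7:5526409-5563902, minus strand, GRCh38) stood at 4804, 3011, 3299 and 1965 CPM. ACTG1 (chr17:81509413-81523847, minus strand), which encodes the other cytoplasmic actin, gamma-actin, stood at 2560, 1660, 2925 and 2039 CPM. For both genes the 2 CBC libraries lay below the 2 PBS libraries. The ACTB ratio of CBC to PBS was 0.627 (interval 0.621 to 0.633) in MIA PaCa-2 and 0.596 (0.589 to 0.602) in PANC-1. Over both lines ACTB fell by 0.70 on the log2 scale (SE 0.14; adjusted p = 0.037, edgeR's quasi-likelihood test with Benjamini-Hochberg adjustment). With a stricter filter on low counts, at least 5 CPM in 2 libraries, its adjusted p in edgeR was 0.0579. The ACTG1 ratios were 0.649 and 0.697, and its log2 fold change of -0.57 (SE 0.15) did not pass the test (edgeR, Benjamini-Hochberg adjusted p = 0.0766). Set against ACTB, ACTG1 was 0.14 higher on the log2 scale, so both actins were lower on the library scale and ACTB by more. The ratio of ACTB to ACTG1 counts was 1.88, 1.81, 1.13 and 0.964, so that ACTB led in MIA PaCa-2 and the 2 genes were about level in PANC-1.

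**Figure D2:**
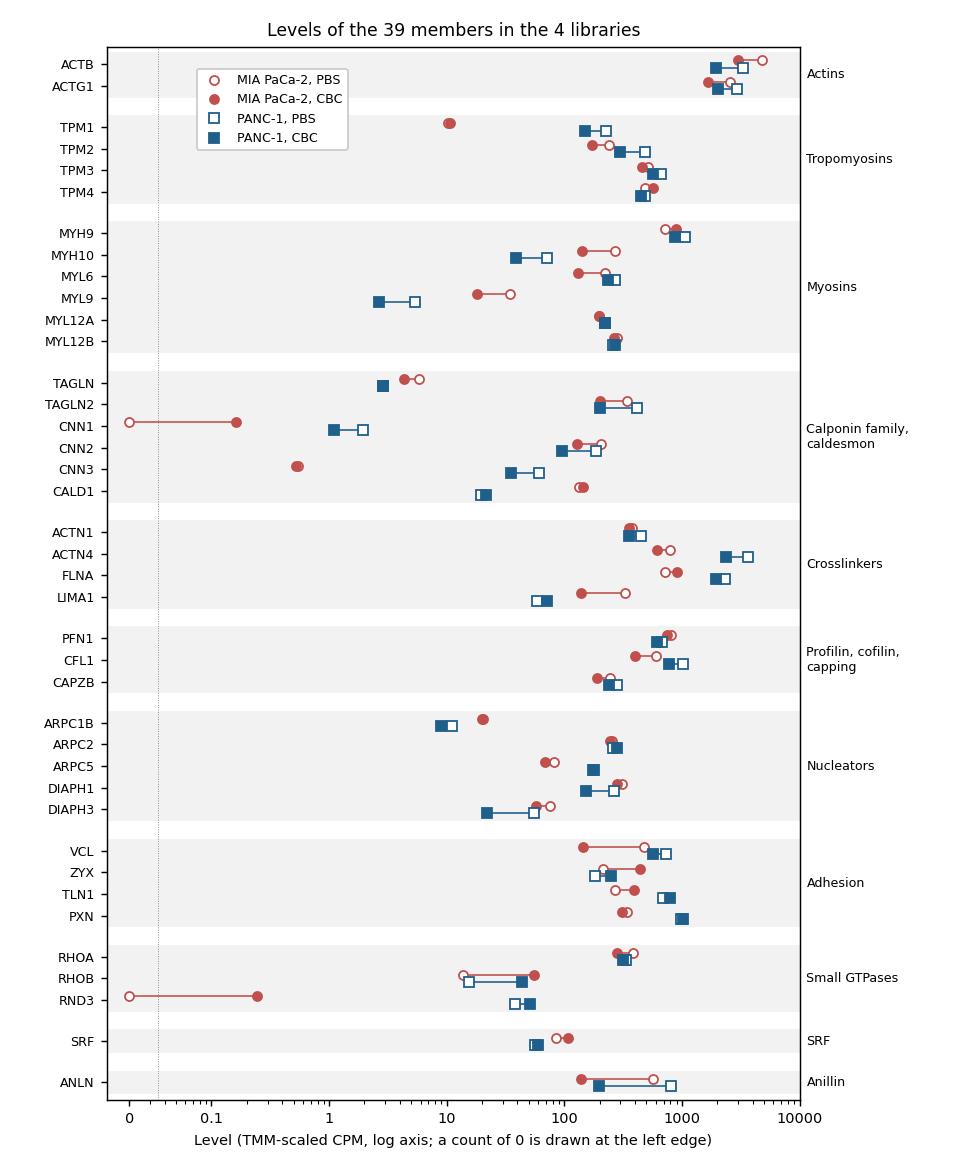
Level of each of the 39 members in TMM-scaled CPM (log axis, counts of 0 at the left edge) in the 4 libraries, with open symbols for PBS, filled symbols for CBC, red circles for MIA PaCa-2 and blue squares for PANC-1. The actins and, in PANC-1, ACTN4 lie highest, CNN1 and RND3 are at 0 in the MIA PaCa-2 PBS library, and TPM1, CNN3, MYL9 and CALD1 differ between the lines by more than they differ between treatments.

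Per kilobase of all annotated exons, merged, ACTB was the most abundant member in the MIA PaCa-2 PBS library (1091 CPM per kb), the MIA PaCa-2 CBC library (684) and the PANC-1 PBS library (749). In the PANC-1 CBC library ACTG1 (503) was ahead of ACTB (446). PFN1, which encodes the monomer-binding protein profilin, stood at 503, 465, 425 and 387 CPM per kb. ACTN4 came next in PANC-1 under PBS after the 2 actins, at 599.6 CPM per kb against 129 in MIA PaCa-2. Merged exons overstate the length of genes with many isoforms such as MYH10, so their levels per kilobase are understated.

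ACTB also stands in a list of 17 genes in wide use as qRT-PCR references. Its log2 fold change was -0.67 in MIA PaCa-2 and -0.75 in PANC-1, while the medians of the other 16 genes were -0.38 and -0.26. Of the 17, 6 were lower than ACTB in MIA PaCa-2 and 2 in PANC-1, SDHA and HPRT1 in both lines. RPLP0, a ribosomal protein gene, was close to 0 in both lines, at 0.04 and 0.08. Among all tested genes, 17.0% in MIA PaCa-2 and 11.2% in PANC-1 had a lower log2 fold change than ACTB. Dividing a transcript's change by that of ACTB multiplies it by 1.60 in MIA PaCa-2 and by 1.68 in PANC-1. For the heme oxygenase gene HMOX1, the ratio of CBC to PBS was 38.2 on the library scale and 60.9 over ACTB in MIA PaCa-2, and 26.4 and 44.2 in PANC-1. For FTH1, the ferritin heavy chain gene, the same ratios were 2.03 and 3.24 in MIA PaCa-2 and 2.56 and 4.30 in PANC-1. SLC7A11, a cystine transporter gene, went from 3.45 to 5.51 and from 6.15 to 10.3, SLC3A2, its partner chain, from 6.18 to 9.87 and from 2.77 to 4.65, and the stress response gene CHAC1 from 10.4 to 16.5 and from 6.28 to 10.5. The direction of these 5 genes was the same on both scales.

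**Figure D3:**
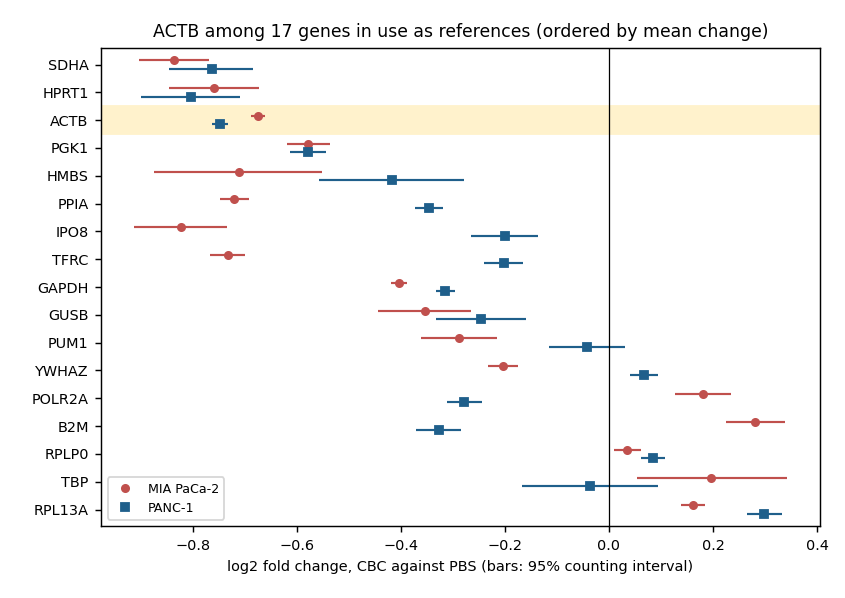
Log2 fold change of CBC against PBS for 17 genes in use as qRT-PCR references, in MIA PaCa-2 (red circles) and PANC-1 (blue squares), with exact 95% counting intervals, ordered by the mean of both lines. ACTB (shaded) lies at -0.67 and -0.75, with 6 of the 17 genes lower in MIA PaCa-2 and 2 in PANC-1. The list runs from -0.84 to 0.28 in MIA PaCa-2 and from -0.80 to 0.30 in PANC-1.

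SRF binds DNA at the CArG box. A script searched the promoters in a RefSeq table on GRCh38.p14 (250 bases before to 50 after each gene start, both strands) for the consensus CArG box. Of the 39 members, 35 had an entry; ACTB, MYL9, ARPC1B and TAGLN were not searched. The box was found in promoters of 7 of these 35 genes (20%, or 13.6% of their promoters), and in those of 438 of 27305 genes in the table (1.6%, or 1.29% of promoters). They are shown because some members share this sequence feature, which was not used to choose them, each as 30 bases, 5′ to 3′ on the strand of the gene, with the box in capitals:
ACTG1, chr17:81512874-81512903, minus strand: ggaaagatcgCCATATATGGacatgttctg
TPM4, chr19:16067355-16067384, plus strand: aatcctaggtCCAAATAAGGcgagggctgc
CNN2, chr19:1026509-1026538, plus strand: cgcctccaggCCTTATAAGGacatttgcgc
ACTN1, chr14:68977718-68977747, minus strand: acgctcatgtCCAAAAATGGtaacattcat
FLNA, chrX:154374709-154374738, minus strand: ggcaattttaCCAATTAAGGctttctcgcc
RND3, chr2:150487748-150487777, minus strand: ctcccaggctCCATAAAAGGggaggaggca
SRF, first site, chr6:43171229-43171258, plus strand: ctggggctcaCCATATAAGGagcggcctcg
SRF, second site, chr6:43171249-43171278, plus strand: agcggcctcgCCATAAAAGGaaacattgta

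The 7 genes with a box did not share a direction. ACTG1 (-0.62 and -0.52), CNN2 (-0.69 and -0.97) and ACTN1 (-0.10 and -0.34) were below 0 in both lines. TPM4 (0.23 and -0.10) and FLNA (0.35 and -0.28) had opposite signs, SRF was at 0.34 and 0.08, and RND3, tested in PANC-1 alone, at 0.42. The 15 members listed as known MRTF-SRF targets had medians of -0.01 over 14 tested in MIA PaCa-2 and -0.34 over 15 in PANC-1, and 1 of its 15 genes fell in the test across both lines. The members outside that list had medians of -0.31 and -0.22. A match to the box is a description of the letters in the window and not evidence of binding.

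Tropomyosins, the rods that lie along the filament and set which myosins reach it, differed by isoform gene. TPM2 stood at 241, 172, 487 and 300 CPM, lower in the CBC library of each line, with ratios of 0.712 (interval 0.684 to 0.742) and 0.617 (0.600 to 0.635). Its log2 fold change over both lines, -0.59 (SE 0.19), did not pass the test (edgeR, Benjamini-Hochberg adjusted p = 0.126), and on an ACTB scale it was 0.12. TPM1 stood at 10.2, 10.8, 226 and 150 CPM. The PANC-1 libraries thus held far more TPM1 than those of MIA PaCa-2, 22.2 times as much under PBS, and TPM1 was lower with CBC in PANC-1 alone, by a log2 fold change of -0.59 against 0.07. TPM3, at 459 to 660 CPM, was slightly lower in both lines (-0.17 and -0.22). TPM4, at 450 to 566 CPM, had opposite signs, and its counting intervals lay on either side of 0.

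Among the myosin II genes, the 2 heavy chains differed. MYH10, the heavy chain of non-muscle myosin IIB (chr17:8474207-8631376, minus strand), stood at 268, 141, 71.9 and 38.6 CPM. Its ratio of CBC to PBS was 0.527 (interval 0.505 to 0.550) in MIA PaCa-2 and 0.536 (0.496 to 0.580) in PANC-1, although PBS cells of MIA PaCa-2 held 3.73 times as much as those of PANC-1. It fell across both lines by 0.91 on the log2 scale (SE 0.20; edgeR, Benjamini-Hochberg adjusted p = 0.046), close to the limit, and under DESeq2's size factors, library totals or a stricter filter on low counts the adjusted p in edgeR was 0.0515 to 0.0596. MYH9, the heavy chain of myosin IIA, stood at 720, 890, 1054 and 870 CPM. It was higher with CBC in MIA PaCa-2 (0.31) and lower in PANC-1 (-0.28), so that the 2 CBC libraries held about the same amount.

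Myosin light chains split likewise. MYL9, a regulatory light chain known from smooth muscle, stood at 34.5, 18.2, 5.41 and 2.67 CPM, from 768, 451, 123 and 73 counts. It was lower in both CBC libraries, with ratios of 0.528 (interval 0.469 to 0.594) and 0.494 (0.365 to 0.665), although its log2 fold change in PANC-1, which includes the prior count, was just short of 2-fold. Its value across both lines, -0.96 (SE 0.30), did not pass (edgeR, Benjamini-Hochberg adjusted p = 0.121). MYL6, the essential light chain, was lower in MIA PaCa-2 (-0.75) and less so in PANC-1 (-0.22). MYL12A and MYL12B, which encode the regulatory light chains of most non-muscle cells, stood at 197 to 281 CPM in every library, with log2 fold changes between -0.10 and 0.05.

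In the calponin family, TAGLN2 and CNN2 were lower in both lines. TAGLN2, which encodes transgelin 2, an actin-bundling protein (chr1:159918107-159925507, minus strand), stood at 341, 199.8, 417 and 201 CPM, so that the 2 CBC libraries held nearly the same amount. It fell across both lines by 0.90 on the log2 scale (SE 0.19; edgeR, Benjamini-Hochberg adjusted p = 0.0415), though library totals or the stricter filter put its adjusted p in edgeR at 0.0512 and 0.0566. CNN2, at 206, 128, 185 and 94.7 CPM, had a log2 fold change of -0.82 (SE 0.20) that did not pass (edgeR, Benjamini-Hochberg adjusted p = 0.0646).

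The remaining genes of that family differed more between the lines than between treatments. CNN3 and CNN1 had too few counts in MIA PaCa-2 to be tested there. CNN3, or acidic calponin, had 12 and 13 counts in MIA PaCa-2 and 1382 and 956 in PANC-1, 113 times the CPM under PBS, and was lower with CBC in PANC-1 (-0.80). CNN1, the smooth muscle calponin, had 0 and 4 counts in MIA PaCa-2 and 44 and 30 in PANC-1. It was lower with CBC in PANC-1 too (-0.77), where its interval ran from -1.54 to -0.12. CALD1, which encodes caldesmon, ran the other way, at 134, 146, 19.4 and 21.7 CPM, 6.91 times higher in MIA PaCa-2 under PBS, with little difference between treatments (0.12 and 0.16). TAGLN had 65 to 129 counts, and 82.2% of the 100-base windows of its transcript also lie in other annotated genes on the same stretch, so its counts are uncertain.

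**Figure D4:**
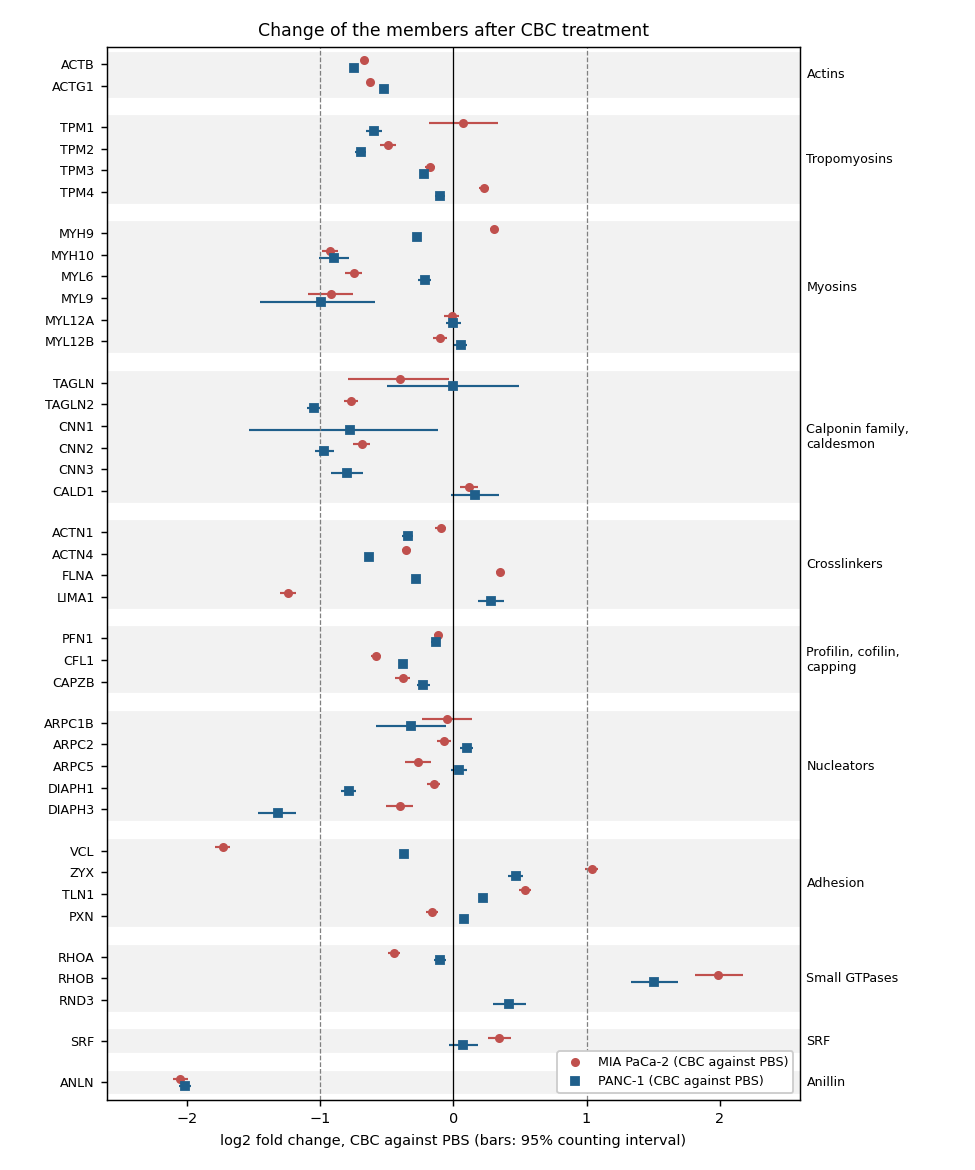
Log2 fold change of CBC against PBS for each member tested in a line, grouped by role, in MIA PaCa-2 (red circles) and PANC-1 (blue squares), with exact 95% counting intervals and dashed lines at 2-fold. RHOB (above 0) and ANLN (-2.05 and -2.02) stand apart in both lines, VCL and LIMA1 in MIA PaCa-2, and DIAPH3 in PANC-1; on a scale set by ACTB every point would lie higher by 0.67 in MIA PaCa-2 and 0.75 in PANC-1.

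Crosslinkers went in several directions. ACTN4, an alpha-actinin of motile and cancer cells, stood at 788, 617, 3672 and 2363 CPM and was 4.66 times higher in PANC-1 than in MIA PaCa-2 under PBS. With CBC it was lower in both lines, with ratios of 0.783 and 0.644, but its log2 fold change of -0.49 did not pass the test (edgeR, Benjamini-Hochberg adjusted p = 0.139) and was 0.22 against ACTB. ACTN1, the other non-muscle alpha-actinin, was at 352 to 448 CPM, hardly lower in MIA PaCa-2 (-0.10) and lower in PANC-1 (-0.34). FLNA, which encodes filamin A, stood at 714, 911, 2348 and 1931 CPM, higher with CBC in MIA PaCa-2 (0.35) and lower in PANC-1 (-0.28).

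Among the 36 members tested in both lines, LIMA1 showed the widest gap between them. This gene, which encodes the filament-stabilising LIM protein EPLIN, stood at 328, 138, 58.9 and 71.7 CPM. Its ratio of CBC to PBS was 0.422 (interval 0.405 to 0.440) in MIA PaCa-2 and 1.22 (1.13 to 1.30) in PANC-1, log2 fold changes 1.53 apart. VCL was next, 1.36 apart, then DIAPH3 at 0.91 the other way. With 1 library per condition the design leaves no test of a difference between the lines, so these gaps are descriptions. LIMA1, TPM4, MYH9, MYL12B, FLNA, ARPC2 and PXN were the 7 members whose counting intervals lay on opposite sides of 0, but none of them moved by as much as 0.5 in both lines.

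Proteins that handle actin monomers and filament ends were lower by modest amounts. CFL1, which encodes the filament-severing protein cofilin, stood at 600.3, 400.4, 1020 and 783 CPM, with ratios of 0.667 and 0.768. Its log2 fold change across both lines, -0.48 (SE 0.17), did not pass (edgeR, Benjamini-Hochberg adjusted p = 0.158) and was 0.23 against ACTB. PFN1 (-0.11 and -0.13) and CAPZB, a subunit of the capping protein (-0.38 and -0.22), were lower in both lines by less.

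Of the nucleators, the member formins were lower mainly in PANC-1, while the Arp2/3 subunits shared no such pattern. DIAPH3, a formin with a role in cell division, had 1695, 1424, 1252 and 602 counts and was lower in both lines and past 2-fold in PANC-1, where its ratio was 0.400 (interval 0.362 to 0.441). Its log2 fold change across both lines, -0.85 (SE 0.28), did not pass (edgeR, Benjamini-Hochberg adjusted p = 0.139). DIAPH1, a formin activated by RHOA, was at 309, 279, 265 and 154 CPM and likewise lower mainly in PANC-1 (-0.15 and -0.79). The Arp2/3 subunit genes ARPC2 (243 to 278 CPM) and ARPC5 (68.1 to 179 CPM) changed sign between the lines, with log2 fold changes from -0.27 to 0.10. For ARPC5 the sign in PANC-1 is open, since its counting interval there ran from -0.02 to 0.10. ARPC1B had 243 to 490 counts, which are uncertain, since an overlapping annotated gene covers 77.7% of its transcript windows and itself held 3 to 19 counts.

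At focal adhesions, VCL and ZYX diverged. VCL, which encodes vinculin, the clutch between talin and actin (chr10:73995193-74121363, plus strand), stood at 478, 144, 732 and 566 CPM. The MIA PaCa-2 CBC library was far below the other 3 libraries, with a ratio of 0.301 (interval 0.290 to 0.313), against 0.773 (0.756 to 0.790) in PANC-1. Its log2 fold change across both lines, -1.04 (SE 0.30), did not pass (edgeR, Benjamini-Hochberg adjusted p = 0.1). ZYX, which encodes zyxin, a LIM protein that gathers on stretched filaments (chr7:143381295-143391111, plus strand), stood at 213, 438, 181 and 250 CPM. It was higher in both CBC libraries than in either PBS library, with ratios of 2.05 and 1.38, and its log2 fold change of 0.76 (SE 0.21) did not pass (edgeR, Benjamini-Hochberg adjusted p = 0.0944).

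TLN1, which encodes talin, the integrin activator, was also higher in both lines, at 270.1, 392, 685 and 799 CPM (0.54 and 0.22). PXN, which encodes the scaffold paxillin, stood at 344, 308, 974 and 1029 CPM, 2.83 times higher in PANC-1 under PBS, and hardly differed between treatments (-0.16 and 0.08). An antisense gene, PXN-AS1, shares 30.4% of the PXN transcript windows, and whether the authors' counting used strand is not stated. So among the 4 adhesion genes 2 were higher in both lines, 1 lower in both and 1 of mixed sign, with medians of 0.19 and 0.15, above those of the other groups of 4 or more members.

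The one member called higher in edgeR's test across both lines was the small GTPase gene RHOB. RHOB, an immediate early, stress-induced member of the family on endosomes (chr2:20447074-20449440, plus strand), stood at 13.8, 55.1, 15.3 and 43.7 CPM, from 308, 1364, 349 and 1194 counts. The 2 PBS libraries were close to each other, and both CBC libraries lay well above them. The ratios were 3.98 (interval 3.52 to 4.52) and 2.85 (2.52 to 3.22), and RHOB rose by 1.76 on the log2 scale across both lines (SE 0.27; edgeR, Benjamini-Hochberg adjusted p = 0.0172). RHOA, the GTPase that drives stress fibres, stood at 383, 281, 336 and 313 CPM, lower in MIA PaCa-2 (-0.44) and closer to 0 in PANC-1 (-0.10). RND3, an atypical member that opposes RHOA, had 0 and 6 counts in MIA PaCa-2 and 862 and 1384 in PANC-1. With 3 counts as the limit that a count of 0 allows in a library, its PBS level was at least 281-fold higher in PANC-1.

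SRF itself stood at 84.5, 107, 56.4 and 59.4 CPM, with log2 fold changes of 0.34 and 0.08 and no call across both lines (edgeR, Benjamini-Hochberg adjusted p = 0.62). MRTFB, a coactivator of SRF, was lower in both (-1.29 and -0.30), also without a call (edgeR, Benjamini-Hochberg adjusted p = 0.159). The other MRTF coactivator gene was at 0.24 in MIA PaCa-2 and -0.73 in PANC-1, so their signs differed in MIA PaCa-2.

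ANLN, which encodes anillin, the scaffold of the contractile ring that binds actin, myosin II and septins, had the largest fall of the set. The gene (chr7:36389821-36453791, plus strand) stood at 571, 138, 803 and 199 CPM. Both CBC libraries lay far below both PBS libraries, with a ratio of 0.241 (interval 0.232 to 0.251) in MIA PaCa-2 and 0.247 (0.240 to 0.255) in PANC-1. Across both lines ANLN fell by 2.03 on the log2 scale (SE 0.18; edgeR, Benjamini-Hochberg adjusted p = 0.00556). The cell cycle genes homology region (CHR), the element TTTGAA or TTCAAA, was searched because promoters of late cell cycle genes are known to carry it. It was found in promoters of 4 of the 35 members (11.4%), ANLN among them, beside 18.2% of all genes in the table. As with the CArG box, a match describes the letters in the window and is not evidence of binding. Any part of the element in the fall of ANLN was not tested. The ANLN stretch is shown because ANLN changed most, with 1 element in capitals and its reverse complement right before it:
ANLN, chr7:36389830-36389859, plus strand: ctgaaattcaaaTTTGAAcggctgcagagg

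Proliferation markers moved with ANLN. The 10 markers, among them MKI67 and TOP2A, summed to 3899, 1528, 4029 and 1385 CPM, and 10 of 10 fell in the test across both lines. MKI67, the common marker of cycling cells, stood at 999, 407, 1240 and 368 CPM. The part of this shift in the fall of ANLN, DIAPH3 and the other members was not tested.

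Beyond the members, 123 further genes of the actin cytoskeleton fell into 11 lists. Of these, 111 were tested in MIA PaCa-2, with a median log2 fold change of -0.14. Past 2-fold, 10 genes were higher and 11 lower, where 11.5% and 8.97% of all tested genes were. In PANC-1 115 were tested, with a median of -0.01, 4 higher and 9 lower, beside 7.71% and 7.03% of genes. In the test across both lines (edgeR's quasi-likelihood test with Benjamini-Hochberg adjustment), 3 of 117 rose and 8 fell. Over all genes in that test, 2.26% rose and 2.45% fell. Of the 8 that fell, 7 were cytokinesis genes: ECT2, RACGAP1, KIF23, KIF20A, PRC1, CIT and AURKB, of 11 on that list, where all but KIF20A and ECT2 were named after their values were seen. All 11 were below 0 in both lines, with medians of -0.84 and -1.12.

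KIF20A, a kinesin of the central spindle, stood at 190, 53.6, 122 and 42.2 CPM and fell by 1.67 on the log2 scale (SE 0.21; edgeR, Benjamini-Hochberg adjusted p = 0.0119). ECT2, the exchange factor that activates RHOA at the division site, stood at 284, 87.3, 352 and 162 CPM and fell by 1.40 (SE 0.21; edgeR, Benjamini-Hochberg adjusted p = 0.0172). Like ANLN, both were lowest in the CBC library of each line.

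Outside cytokinesis, TNS3 fell and FLNC, TGFB1I1 and ARHGEF2 rose. TNS3, which encodes the adhesion protein tensin 3, stood at 249.97, 123, 345 and 142 CPM and fell by 1.15 on the log2 scale (SE 0.20; edgeR, Benjamini-Hochberg adjusted p = 0.023). ARHGEF2, which encodes GEF-H1, a microtubule-bound activator of RHOA, stood at 65.8, 265, 78.8 and 223 CPM and rose by 1.76 (SE 0.22; edgeR, Benjamini-Hochberg adjusted p = 0.0118). Its values followed the same order as those of RHOB, low in both PBS libraries and high in both CBC libraries.

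TGFB1I1, which encodes the paxillin relative Hic-5, rose by 1.25 (SE 0.26; edgeR, Benjamini-Hochberg adjusted p = 0.0408), from 236 to 734 counts in MIA PaCa-2 and from 636 to 1548 in PANC-1. FLNC, the muscle filamin gene, had 15 and 84 counts in MIA PaCa-2 and 2902 and 8549 in PANC-1 and rose by 1.64 (SE 0.29; edgeR, Benjamini-Hochberg adjusted p = 0.026). FLNA was at 0.35 and -0.28. DAAM1, a formin gene, was higher in both lines (1.89 and 0.96) without a call (edgeR, Benjamini-Hochberg adjusted p = 0.0537).

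In the other lists no gene passed the test across both lines. TMSB4X, which encodes the monomer-sequestering thymosin beta 4, was lower in both lines (-0.54 and -0.64). The formin gene FHOD1 (-1.06 and -0.61) and the myosin phosphatase partner MPRIP (-0.82 and -0.36) were lower too, while WASF2, which activates the Arp2/3 complex (0.40 and 0.55) and MYO5A, a cargo-carrying myosin (0.53 and 0.70), were higher. The 6 other Arp2/3 subunit genes ran from -0.56 to 0.12 in MIA PaCa-2 and from -0.48 to 0.29 in PANC-1. That range was wider than that of the Arp2/3 members, from -0.27 to -0.05 and from -0.32 to 0.10.

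**Figure D5:**
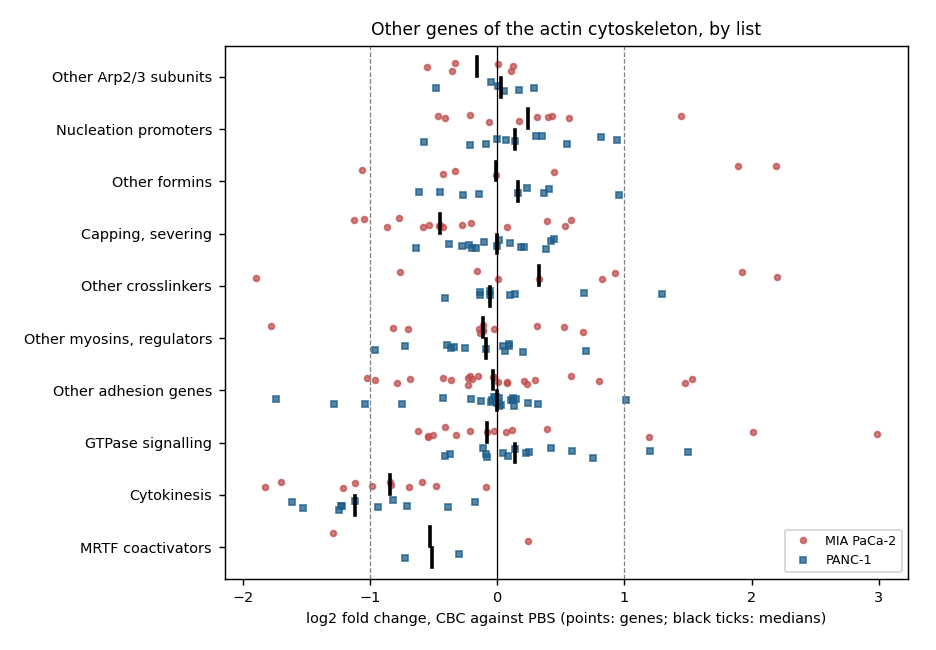
Log2 fold change of CBC against PBS for further actin cytoskeleton genes tested in a line, by list, in MIA PaCa-2 (red circles) and PANC-1 (blue squares), with medians as black ticks and dashed lines at 2-fold; the list of other actins, with 1 gene tested, is left out. Cytokinesis genes lie below 0 in both lines, with medians of -0.84 and -1.12. The list of capping and severing genes has medians of -0.45 and -0.00.

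Before treatment the 2 lines already differed in this machinery. Under PBS, PANC-1 held more CNN3, TPM1, ACTN4 (4.66 times), FLNA (3.29 times), PXN, TLN1 (2.54 times), ARPC5 (2.12 times) and TPM2 (2.02 times). MIA PaCa-2 held more CALD1, MYL9 (6.38 times), LIMA1 (5.57 times) and MYH10. For most of these genes the gap between the lines was wider than the gap between treatments, while RHOB (1.11 times) and TPM4 (0.999 times) were nearly level between the PBS libraries. Each of these ratios compares 1 library with 1 library.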

How the data were processed

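The authors used cutadapt 2.7 for trimming, STAR for alignment to GRCh38 and HTSeq for counting on the Ensembl release 89 genes, and deposited raw counts with a TMM-scaled CPM signal per library; strand and counting mode are not stated, and the library kit was directional. Libraries held 21742775 to 27903667 counts, and a count of 0 allows up to 0.11 to 0.135 CPM. Symbols matched 57392 of 58233 identifiers, with positions from GENCODE 44. From the deposited counts, edgeR 4.0.16 in R 4.3.3 gave log2 fold changes (TMM over 4 libraries, prior count 2) for each gene that reached 1 CPM in either library of the line, called past 1, and a quasi-likelihood test of CBC against PBS over both lines with the line as block (adjusted p under 0.05). Libraries of a line are paired by the cell line; the correlation of their deviations was 0.923, and the common biological coefficient of variation was 23.0%. Intervals are Clopper-Pearson (scipy 1.17.1). The edgeR step was tested on simulated data. The members, lists and tests were chosen with earlier results of these data known. All members could be named, and of each wider list the at most 2 genes with the largest change in the same direction in both lines (mean of at least 10 CPM); 5 further cytokinesis genes were named after their values were seen. The deposited normalized CPM served as an alternative with a pseudocount of 1. Other scalings and filters, DESeq2 1.42.0 and no block were the alternatives. Some genes are not reported here.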

Additional observations from a re-analysis of the deposited data

How the results depend on the processing

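With 1 library per condition no library could be left out: without 1 line the test across both lines has no residual degrees of freedom and only the values within the other line remain. Pairing decided the test across both lines. Without the replicate block, which pairs libraries by cell line, it called 0 members higher and 0 lower and 0 of 16381 genes, with 3 members and 354 genes at an unadjusted p under 0.05. ACTB as the reference moved the median of all genes to 0.65 in MIA PaCa-2 and 0.76 in PANC-1 and the members' medians to 0.45 and 0.47. It put 5 members higher past 2-fold in MIA PaCa-2, 4 higher and 1 lower in PANC-1, and 15 higher and 1 lower across both lines, with 6205 genes higher and 233 lower in place of 370 and 401, and it reversed ACTG1 (0.14), TPM2 (0.12), ACTN4 (0.22) and CFL1 (0.23). TMM within each line moved the PANC-1 median to -0.30. Without a filter on low counts, 4 members were higher in MIA PaCa-2, and across both lines 2 were higher and 9 lower, with 2063 genes called in place of 771. Counting intervals wholly past 2-fold left 1 higher in MIA PaCa-2, and a 1.5-fold limit gave 10 lower in MIA PaCa-2 and 13 in PANC-1, where 20.1% and 15.3% of all tested genes were lower past it. Library totals left 2 lower across both lines, at least 5 CPM in 2 libraries left 1 (447 genes called), and DESeq2's test called 2 higher and 7 lower (1296 genes). RHOB and ANLN were called in every setting of the test but the one without the block. The other 50 alternative values of these summaries stayed within 1.5 times the main count or, for medians, within the counting interval of a typical member. Among them, the MIA PaCa-2 median of -0.22 became -0.16 with library totals or without the filter on low counts. Among the 14 members at an unadjusted p under 0.05, a call was lost in 14 cases and gained in 11. At these depths CNN1 and RND3 in MIA PaCa-2 are near the limit of 3 counts.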
